A study of Mus musculus with 16 samples.

Results

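The subject here was a set of 7 genes for the handling of actin monomers and filaments, the β-thymosins Tmsb4x and Tmsb10, the profilins Pfn1 and Pfn2, the cofilin Cfl1, and the cytoplasmic actins Actb and Actg1. They were taken by name from the 19999 genes of a table of unique molecular identifiers (UMIs, each standing for 1 captured transcript) in 114512 nuclei. The set was chosen by the genotype differences of Tmsb4x, which had already been seen in nearly all cell types of these mice, so the values of Tmsb4x below, also for alcohol, which was compared within the same groups of mice, are a description with no test, and only the other 6 genes were tested. The nuclei came from the prefrontal cortex of 16 male mice, with a labelled age of 22 weeks, in 4 groups of 4. WT controls (strain B6;129) breathed air and were given pyrazole, an inhibitor of alcohol dehydrogenase. WT alcohol mice went through repeated cycles of intermittent alcohol vapor, each opened by injections of ethanol and pyrazole. 3xTg-AD mice, on a B6;129 background by the study's methods, carry human APP with the Swedish mutation and a mutant human tau as transgenes, both under a Thy1 cassette that is active mainly in neurons, together with a knock-in mutation, and were likewise kept in air (3xTg-AD controls) or exposed to alcohol vapor (3xTg-AD alcohol mice). All mice had been through the Morris water maze. The labels name no litter, preparation day or sequencing batch, so that differences of that kind and the groups cannot be told apart.

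Actin exists in cells as monomers and as filaments that grow at their barbed end and shorten at their pointed end. β-Thymosins hold monomers in reserve, profilins hand monomers to growing filaments, and cofilin severs and takes apart older filaments. In neurons this turnover shapes dendritic spines and growth cones, and in microglia and endothelial cells it drives motility and shape change.

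All positions are in the mouse build GRCm38 (mm10) with GENCODE M21 gene models, each spanning the whole gene with its exons, introns and untranslated regions. Tmsb4x, the main monomer-sequestering peptide of most tissues, lies on the minus strand at chrX:167207093-167209315. Its paralog Tmsb10 lies at chr6:72957347-72958748. Pfn1, the widespread profilin, lies at chr11:70651850-70654644, and Pfn2, the profilin typical of brain, at chr3:57841895-57848079. Cfl1, the non-muscle cofilin, lies on the plus strand at chr19:5490455-5495201. Actb (β-actin) lies at chr5:142903115-142906754 and Actg1 (γ-actin) at chr11:120345690-120348542. Because the 3′ kit reads the ends of transcripts, the last 300 bases of each gene were compared with all other annotated transcripts. Stretches of at least 150 bases with at least 95% identity were found for Actg1 in 7 pseudogenes, for Actb in 4 genes, for Tmsb10 in 1 gene and for Cfl1 in 1 gene, and for Tmsb4x, Pfn1 and Pfn2 in 0 genes. Of these only Snx32 (for Cfl1) and Lrrc58 (for Actb) have a row in the count table, and how the counting treated shared ends is not given in the sources used here, so the counts of Actb, Actg1, Cfl1 and Tmsb10 carry that uncertainty.

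The promoters of Tmsb4x and Actg1 are shown because these members had the largest median differences over classes by genotype without alcohol and by alcohol in WT mice, the latter by a margin below the standard errors. The sequences are RefSeq's, on GRCm38.p6, read on the minus strand. RefSeq starts Tmsb4x at chrX:167209218, 97 bases inside the GENCODE model, so the window shown, chrX:167209316-167209468 (bases 250 to 98 before the RefSeq start), stops before both. Its GC box GGGCGG, which begins 211 bases before the RefSeq start, is in capitals. The window for Actg1 is chr11:120348556-120348615, bases 120 to 61 before the RefSeq start, with its CArG box, the motif of the actin-responsive factor SRF, in capitals.
Tmsb4x: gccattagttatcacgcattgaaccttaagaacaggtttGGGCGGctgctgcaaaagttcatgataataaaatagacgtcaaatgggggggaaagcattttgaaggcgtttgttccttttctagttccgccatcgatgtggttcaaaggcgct
Actg1: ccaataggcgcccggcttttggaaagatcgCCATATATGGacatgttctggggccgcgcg
Over 300 bases around each start and on both strands, the CArG box was found in 1 of the 6 members with an entry (Actg1), beside 1.63% of 32851 mouse promoters. The GC box was found in 6 of 6, beside 35.7% of all promoters, and the TATA motif TATAAA in 0 of 6, beside 13.6%. Actb had no entry. A member was counted if any of its windows held the motif (8 windows for the 6 members). The shares of all promoters count each window by itself, so the 2 measures are not alike.

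The mice had 4955 to 9096 nuclei and 9622031 to 17544364 UMIs each, and a nucleus had a median of 1543 UMIs. A barcode was shared by more than 1 mouse for 1694 barcodes (3400 nuclei, 2.97%). Clusters were named from markers without using the 7 genes, and each name below stands for nuclei that resemble that type ("L2/3 IT" for L2/3 IT-like). Of 21 named classes 18 had enough nuclei in every group, and 38.3% of nuclei stayed unnamed and entered only the sums over all nuclei. In the Meis2 class 1057 of 1714 nuclei came from 1 WT control mouse, and the Lamp5, Sncg and VLMC classes had 3 usable WT controls. RNA from outside the nuclei was present in every class: hemoglobin transcripts, made by red cells, stood at 0.489 to 0.625 UMIs per nucleus in 16 classes, at 1.29 in VLMC and at 32.7 in endothelial nuclei. Libraries also differed in make-up. The noncoding RNA Gm42418 took 2.90% and 1.94% of the UMIs in WT controls 26 and 27 and 1.79% in 3xTg-AD control 12, beside 0.206% to 0.425% in the other 13 mice.

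Every member had UMIs in every class, and Tmsb4x was highest in endothelial nuclei and microglia. Levels are in CPM, the counts of a gene scaled to 1000000 UMIs of the class, as means ± SD over mice. Genes are not ranked against each other by level, and ratios between members are given only to compare classes. Pfn1 (0.0559 to 0.145 UMIs per nucleus), Tmsb10 (0.216 to 0.546), Pfn2 (0.223 to 0.543) and Cfl1 (0.383 to 0.750) were low. Beside 0.489 UMIs or more of hemoglobin from outside the nuclei, their UMIs in a class cannot be told apart from RNA of that source. For Tmsb4x, Actb and Actg1 the part of such RNA was not tested. Since clusters are made from the same nuclei, no test was made between classes. Tmsb4x stood at 5748 ± 2436 CPM (n = 16) in endothelial nuclei, followed by microglia (4619), oligodendrocytes (3129), VLMC (2984), OPC (2745), the Meis2 class (2644) and astrocytes (2375). The other interneuron classes lay between 2075 (Vip) and 1631 (Sncg), and the lowest value was in L5 ET neurons (1151 ± 491), 4.99-fold below endothelial nuclei. Since each SD includes both genotypes, it was wide, and in 0 of the 17 pairs of neighbours in this order did the gap exceed the larger SD.

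Actb ranged from 266 ± 31.8 CPM in L5 ET neurons to 1187 ± 311 in endothelial nuclei, and Actg1 from 212 to 799 in the same classes. Among the 17 neighbouring pairs, 2 were apart by more than the larger SD for Actb, 1 for Actg1 and 1 for Tmsb10. Tmsb10 ranged from 88.2 (L5 ET) to 293 CPM (endothelial), Cfl1 from 157 (L5 ET) to 403 (endothelial) and Pfn1 from 25.5 (L2/3 IT) to 88.5 (microglia). Pfn2 had the narrowest range, 1.88-fold, from 136 in Pvalb interneurons to 255 in VLMC. The ratios between members moved less than their levels: Tmsb4x over Actb was between 3.44 (VLMC) and 5.36 (microglia), Actg1 over Actb between 0.662 (oligodendrocytes) and 0.905 (Meis2), and Cfl1 over Actb between 0.339 (endothelial) and 0.591 (L5 ET).

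Since CPM divides by the total UMIs, levels in CPM are given beside levels per nucleus. Across the 18 classes, which share libraries and sequencing runs, the log CPM of Tmsb4x and the log of total UMIs per nucleus had r = -0.79, and the other members ranged from -0.79 (Pfn1) to -0.91 (Cfl1), values in which total UMIs enter on both sides. Counted as UMIs per nucleus instead, Tmsb4x lay between 3.24 (L5/6 NP) and 10.3 (endothelial) with a median of 3.67, and its r with total UMIs was 0.07. Endothelial nuclei thus kept the top place for Tmsb4x on both scales, and the remaining classes stood between 3.24 and 4.60 UMIs per nucleus. For Actb, endothelial nuclei had 2.16 UMIs per nucleus beside a median of 0.853, and for Actg1 1.45 beside 0.658. Pfn2 had its highest value per nucleus in L5 ET neurons (0.543), its lowest in microglia (0.223) and r = 0.90 with total UMIs. At these low counts its order over classes cannot be told apart from RNA outside the nuclei. Endothelial nuclei were also the class with 32.7 hemoglobin UMIs per nucleus, whose part in these levels was not tested.

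**Figure D1:**
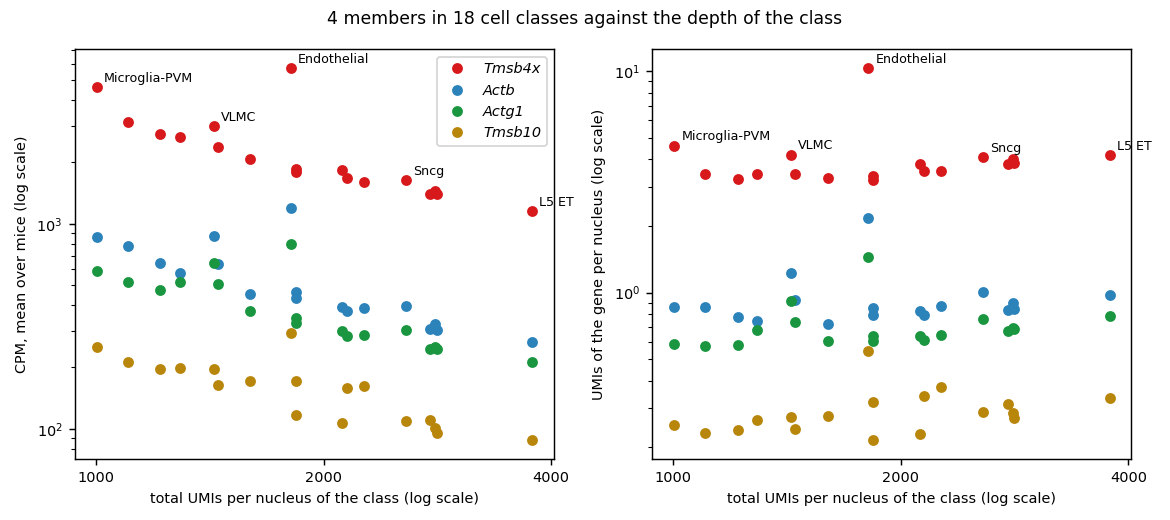
Level of Tmsb4x, Actb, Actg1 and Tmsb10 in 18 cell classes against the mean total UMIs per nucleus of the class, in CPM and in UMIs per nucleus, all on log axes. Each point is a class mean over mice. In CPM, whose denominator is the total on the other axis, Tmsb4x has r = -0.79, and per nucleus Tmsb4x lies between 3.24 and 4.60 except in endothelial nuclei (10.3).

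The genes most like each member over the 18 class means in CPM, which share their denominator, among 10804 genes with at least 10 CPM, follow for each member. For Tmsb4x they were Rpl10a (a ribosomal protein, r = 0.988), Ap2m1 (a clathrin adaptor subunit) and Pomp (a proteasome assembly factor). For Actb they were Tuba1b (an α-tubulin), mt-Nd2 and Rpl41, and for Actg1 they were mt-Co3, Ubb and mt-Co2. Cfl1 was most like Ndufa2, Gapdh and Uqcrq, Tmsb10 most like Nenf, Ids and Grpel1, Pfn1 most like Cfdp1, Arpc4 (an Arp2/3 subunit) and Grk2, and Pfn2 most like Itm2c, Hmgcs1 and Arf3. Over the 16 mice the closest genes to Tmsb4x were others, Trappc2 (r = 0.947), Dctn6 (0.932), Rab9 (0.914), Atraid (0.902) and Wdr74 (0.891), of which Trappc2 and Rab9 lie near Tmsb4x on the X chromosome. Both genotypes enter these r values, which thus include the genotype difference that Tmsb4x was chosen for. Nothing is read from this order.

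Tmsb4x was higher in 3xTg-AD mice than in WT mice with and without alcohol. Summed over all nuclei, the WT controls had 924, 962, 1460 and 1511 CPM, and the 3xTg-AD controls 1822, 3248, 3342 and 3494.5. The WT alcohol mice had 1566, 1839, 1841 and 1915 CPM, and the 3xTg-AD alcohol mice 2121, 2288, 3403 and 3724. In air and under alcohol the genotypes did not overlap, but the lowest 3xTg-AD control (mouse 12) lay within the range of the WT alcohol mice. The means were 1214 ± 314 in WT controls, 1790 ± 153 in WT alcohol mice, 2977 ± 777 in 3xTg-AD controls and 2884 ± 799 in 3xTg-AD alcohol mice (SD, n = 4 each). The fitted genotype difference was 1.29 on the log2 scale in air (SE 0.227, 2.45-fold) and 0.69 under alcohol (SE 0.224, 1.61-fold). In such sums, fewer or more nuclei of a type and a different amount of RNA per nucleus cannot be told apart.

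**Figure D2:**
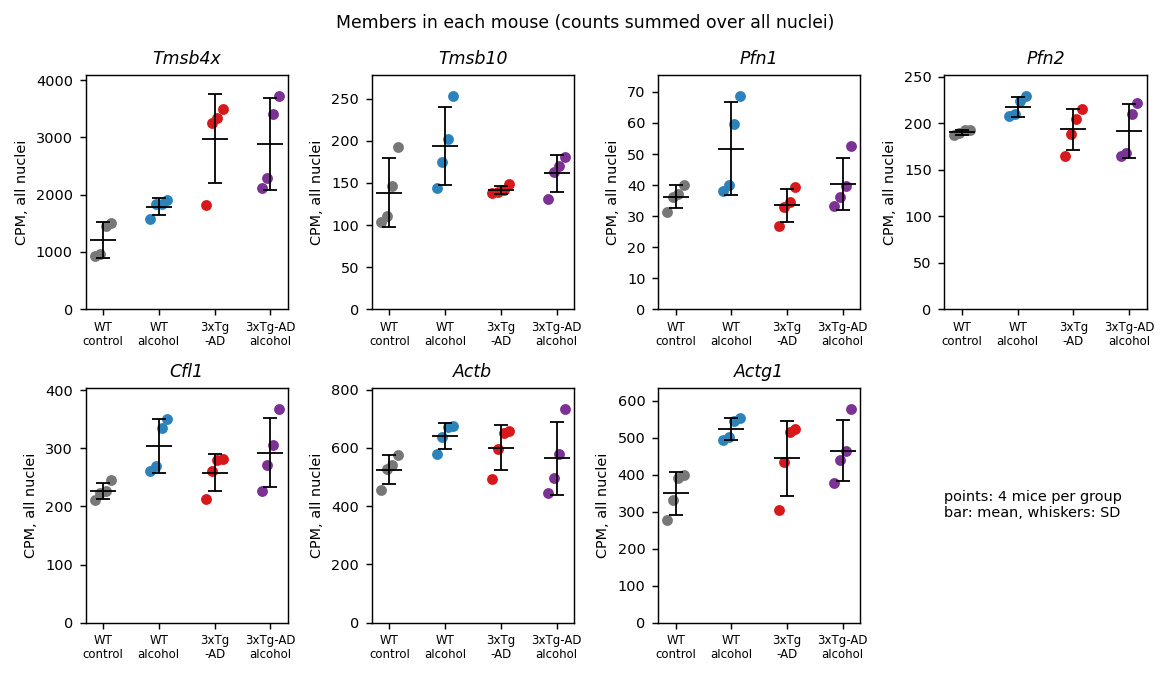
CPM of each of the 7 genes in the sum over all nuclei of each mouse (points), by group, with the group mean and SD (bars), n = 4 mice a group. For Tmsb4x the 3xTg-AD controls (1822 to 3494.5) lie above the WT controls (924 to 1511); the other 6 genes overlap between genotypes.

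The difference was of similar size from class to class. RNA from outside the nuclei was present in every class, and its part in this difference was not tested. Without alcohol, Tmsb4x differed by 1.27 in the median class on the log2 scale (2.41-fold), from 1.03 in Sncg interneurons to 1.64 in VLMC, and in 17 of 18 classes every 3xTg-AD control lay above every WT control; L5 ET was the exception. Over all genes and classes tested, 1.71% had all 3xTg-AD controls above all WT controls. Under alcohol the median was 0.72, from 0.62 (L6 CT) to 1.15 (endothelial), with 16 of 18 classes not overlapping (Vip and Lamp5 did overlap), beside 2.73% of all genes and classes. Since Tmsb4x was chosen for this pattern, nothing is read from these counts.

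In L2/3 IT neurons Tmsb4x had 578, 606, 864 and 1055 CPM in WT controls and 1312, 1950, 2195 and 2206 in 3xTg-AD controls. In microglia the WT controls had 1943, 2215, 2694 and 3310 CPM and the 3xTg-AD controls 3994, 6123, 6588 and 7577. In endothelial nuclei the values were 2637, 3223, 3587 and 3691 CPM against 6844, 7036, 7235 and 7532. The groups did not overlap in these classes, and the lowest 3xTg-AD control value in L2/3 IT neurons and microglia was that of mouse 12. Under alcohol, endothelial nuclei had 3205, 3719, 3891 and 4526 CPM in WT mice and 7059, 8738, 8790 and 10258 in 3xTg-AD mice, again without overlap. Without the 3 mice with the most Gm42418 the median over classes without alcohol was 1.09, and without the 4 mice with the lowest share of ribosomal protein transcripts (a set chosen after seeing the data) the median under alcohol was 0.97. That set held 3xTg-AD alcohol mice 31 and 34, the lowest of their group in Tmsb4x over all nuclei, and no WT alcohol mouse. A larger difference thus followed from the choice, and nothing is read from it.

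**Figure D3:**
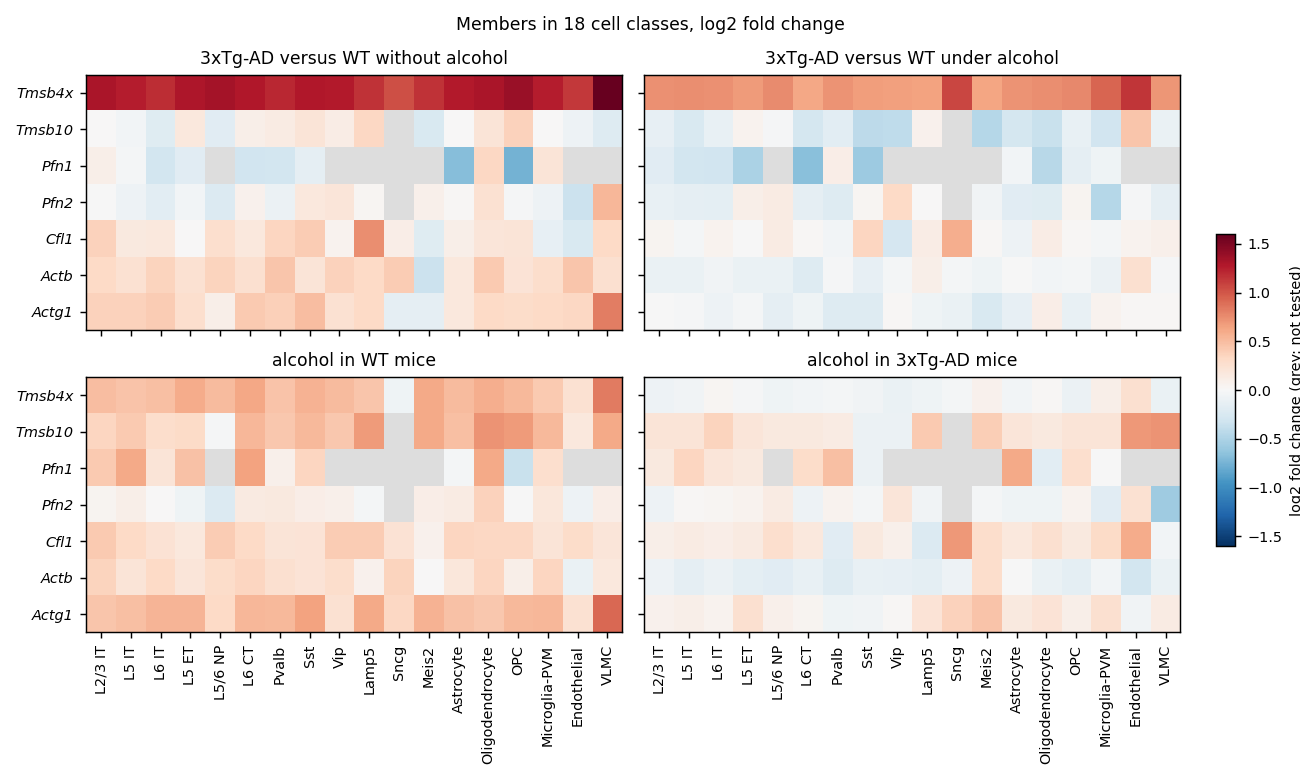
Log2 fold change of the 7 genes (rows) in 18 cell classes (columns) for both genotype contrasts and both alcohol contrasts, as colour from lower (blue) to higher (red); empty cells were not tested. Tmsb4x is higher in 3xTg-AD mice in every class (1.03 to 1.64 without alcohol) and the alcohol contrast in WT mice is above 0 for most genes and classes, while that in 3xTg-AD mice has gene medians from -0.12 (Actb) to 0.20 (Tmsb10).

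The other 6 genes were tested by genotype in 99 combinations of gene and class, with edgeR's quasi-likelihood test and Benjamini-Hochberg adjustment over all genes of a class. Without alcohol 0 of 99 passed an adjusted p of 0.05, beside 0.176% of all genes and classes, while 19 of 99 had an unadjusted p under 0.05, beside 6.39% of all. The latter count was 12 of 96 without the 3 mice with the most Gm42418, 12 of 95 without WT control 27 alone and 8 of 78 with classes set by marker UMIs. Marker-UMI classes left 75455 nuclei unnamed, beside 43807 with clusters. The count was 20 of 97 without WT control 26 and 23 of 99 with counts scaled by library totals alone. DESeq2, run as an alternative, also gave 0 calls. The largest medians were those of the actins. Actb had a median of 0.30 on the log2 scale, above 0 in 17 of 18 classes (smallest adjusted p 0.359) and 0.32 without those 3 mice, and Actg1 a median of 0.32, above 0 in 16 of 18 (smallest adjusted p 0.313). The remaining genes were closer to 0, with medians of 0.01 for Tmsb10, -0.19 for Pfn1, -0.00 for Pfn2 and 0.17 for Cfl1. With 1 mouse left out the median of Pfn1 ranged from -0.36 (without 3xTg-AD control 12) to 0.01 (without 3xTg-AD control 21). That of Tmsb10 ranged from -0.07 (without WT control 26) to 0.22 (without WT control 36) and that of Pfn2 from -0.07 (without WT control 36) to 0.05 (without WT control 28).

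Actb showed the clearest separation of these values. In microglia it had 562, 755, 795 and 838 CPM in WT controls and 884, 887, 889 and 943 in 3xTg-AD controls. In L2/3 IT neurons the WT controls had 232, 233, 271 and 293 CPM and the 3xTg-AD controls 312, 315, 327 and 336. Both classes belong to the 8 of 18 in which every 3xTg-AD control lay above every WT control for Actb, beside 1.71% of all genes, though no class passed the adjusted threshold. The corresponding count was 3 of 18 for Cfl1 and 0 for Actg1, Tmsb10, Pfn1 and Pfn2. The classes hold nuclei of the same mice and are not independent of each other.

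Under alcohol the actins did not show this direction. With edgeR 0 of 99 tests passed an adjusted p of 0.05 (0.39% of all genes and classes did). DESeq2 called 0 as well, and with edgeR 4 of 99 had an unadjusted p under 0.05, beside 8.59% of all. That count was 7 of 96 without the 3 mice with the most Gm42418 and ranged from 2 (without WT alcohol mouse 17) to 8 (without WT alcohol mouse 6) with 1 mouse left out. The medians were -0.05 for Actb, -0.07 for Actg1, 0.03 for Cfl1, -0.17 for Tmsb10, -0.12 for Pfn2 and -0.30 for Pfn1. With 1 mouse left out they ranged from -0.13 (without WT alcohol mouse 17) to 0.01 (without 3xTg-AD alcohol mouse 31) for Actb and from -0.11 (without WT alcohol mouse 17) to -0.01 (without WT alcohol mouse 6) for Actg1. Cfl1 ranged from -0.02 (without WT alcohol mouse 6) to 0.13 (without 3xTg-AD alcohol mouse 31), and Tmsb10 was -0.08 without WT alcohol mouse 17, Pfn2 -0.05 without 3xTg-AD alcohol mouse 31 and Pfn1 -0.09 without WT alcohol mouse 18. The median SE of a class was 0.158 for Actb and 0.166 for Actg1, which sets the size of change that could be seen.

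For alcohol exposure in WT mice edgeR called 0 of the 6 tested genes in the sums over all nuclei, where 0.0179% of all genes were called, and the fitted differences of the 7 genes were all above 0, from 0.19 to 0.58 on the log2 scale. Summed over all nuclei, Actg1 had 276, 330.2, 392 and 399 CPM in WT controls and 494, 502, 545 and 554 in WT alcohol mice. The groups did not overlap, and the difference was 0.58 on the log2 scale (SE 0.166, edgeR adjusted p = 0.254; DESeq2 adjusted p = 0.0484). Over all genes, 6.95% had every WT alcohol mouse above every WT control in this sum. For Cfl1 the values were 211, 224, 226 and 245 CPM in WT controls and 261, 269, 335 and 351 in WT alcohol mice, also without overlap (0.43, SE 0.142, edgeR adjusted p = 0.261). For Tmsb4x the WT alcohol mice (1566 to 1915 CPM) lay above the WT controls (924 to 1511) as well (0.56, a description, since low WT controls are part of the pattern it was chosen for). Actb (457 to 575 CPM against 580.0 to 674) and Pfn2 (187 to 193 against 208 to 229) did not overlap either, with differences of 0.29 and 0.19, so that 4 of the 6 tested genes had every WT alcohol mouse above every WT control. Pfn1 and Tmsb10 did overlap between the groups: Pfn1 had 31.2 to 40.0 CPM in WT controls and 38.1, 40.1, 59.8 and 68.7 in WT alcohol mice (0.52), and Tmsb10 had 103 to 192 and 145 to 253 (0.49).

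Within classes 0 of 99 tests of the 6 genes passed an adjusted p of 0.05 in WT mice, beside 0.0277% of all genes and classes, and 38 of 99 had an unadjusted p under 0.05, beside 9.18% of all. The latter count was 22 of 96 without the 3 mice with the most Gm42418 and 24 of 99 with the Gm42418 share as a covariate. It was 26 of 99 without WT alcohol mouse 18, 41 of 99 without WT alcohol mouse 7 and 43 of 99 with library totals alone. Actg1 had a median of 0.52, was above 0 in 18 of 18 classes, and had every WT alcohol mouse above every WT control in 11 of them, beside 2.87% of all genes and classes. DESeq2 called 3 of 99, all of them Actg1, in L5 ET, L6 CT and Sst nuclei. The share of all genes and classes that DESeq2 called is not given here, and 0.0277% is that of edgeR. The smallest adjusted p of Actg1 with edgeR was 0.0892, in Sst interneurons (0.65, SE 0.166), where the WT controls had 178, 186, 215 and 254 CPM and the WT alcohol mice 316, 324, 341 and 349. In astrocytes the WT controls had 360, 431, 451 and 458 CPM of Actg1 and the WT alcohol mice 518, 589, 608 and 634, and in oligodendrocytes 314, 344, 437 and 500.1 stood against 509, 516, 572 and 618. Tmsb10 had a median of 0.49 with 10 of 17 classes at an unadjusted p under 0.05, and with 1 mouse left out the median ranged from 0.30 (without WT alcohol mouse 17) to 0.69 (without WT control 36). Cfl1 (0.31) and Actb (0.24) were above 0 in 18 and 17 of 18 classes, Pfn1 had a median of 0.34 over 11 classes (0.55 without WT alcohol mouse 6), and Pfn2 a median of 0.10 over 17 (0.03 without WT alcohol mouse 18). Tmsb4x, as a description, had a median of 0.50.

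The composition of the RNA moved with the alcohol groups of the WT mice too. Transcripts of ribosomal proteins took 1.95%, 2.21%, 2.21% and 2.23% of UMIs in WT controls and 2.41%, 2.66%, 2.70% and 2.72% in WT alcohol mice. In 3xTg-AD controls they took 1.64%, 2.37%, 2.38% and 2.56%, and in 3xTg-AD alcohol mice 1.86%, 1.88%, 2.74% and 3.10%. Within 3xTg-AD mice, mouse 12 was the lowest of the controls both in this share and in Tmsb4x, and the alcohol mice with 1.86% and 1.88% had 2121 and 2288 CPM of Tmsb4x while those with 2.74% and 3.10% had 3403 and 3724. With the ribosomal protein share as a covariate (an alternative added after seeing the data), the median alcohol difference of Tmsb4x in WT mice was 0.20 and that of Actg1 0.41. Without the 3 mice with the most Gm42418, 2 of which are WT controls, it was 0.18 for Tmsb4x and 0.33 for Actg1, and with the Gm42418 share as a covariate 0.11 and 0.35. The genotype difference of Tmsb4x without alcohol was 1.20 with the ribosomal covariate.

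**Figure D4:**
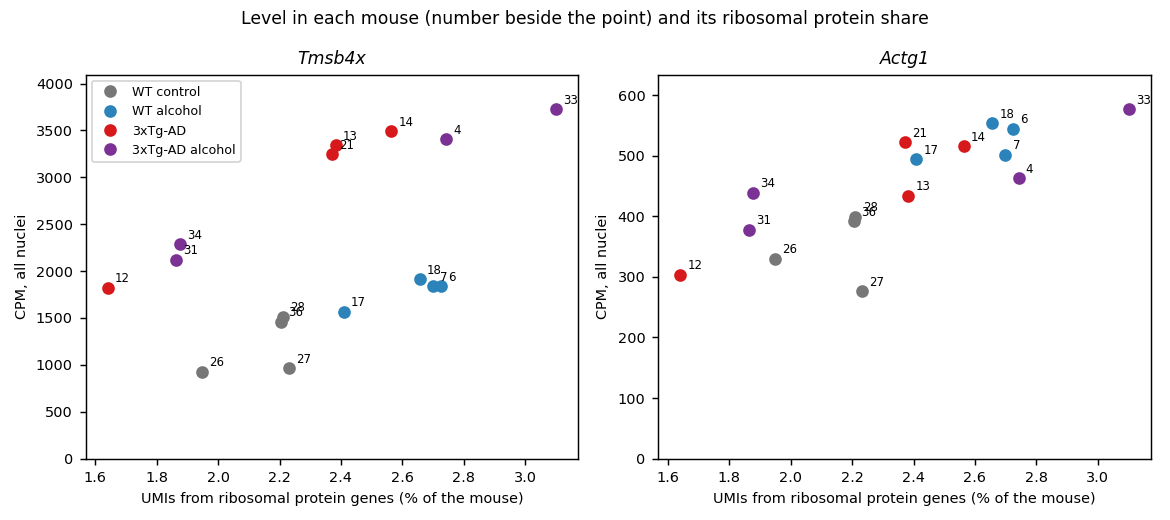
CPM of Tmsb4x and of Actg1 in all nuclei of each of the 16 mice against the share of UMIs from ribosomal protein genes (percent), coloured by group. For Tmsb4x every 3xTg-AD mouse except mouse 12 lies above all 8 WT mice, while for Actg1 the 3xTg-AD mice spread over the ranges of both WT groups, which do not overlap each other.

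For alcohol exposure in 3xTg-AD mice the median differences over classes lay between -0.12 and 0.20. Actg1 had 303, 434, 516 and 522 CPM in 3xTg-AD controls and 378, 439, 463 and 577 in 3xTg-AD alcohol mice, which overlap (0.06, SE 0.166, edgeR adjusted p = 0.937). Within classes 0 of 99 tests of the 6 genes passed an adjusted p of 0.05 (0.163% of all genes and classes did) with DESeq2 also at 0, and 4 of 99 had an unadjusted p under 0.05 with edgeR, beside 8.34% of all. With 1 mouse left out the latter count ranged from 2 (without 3xTg-AD control 14 or 21) to 5, and it was 8 of 101 without the 4 mice with the lowest ribosomal protein share. Every 3xTg-AD alcohol mouse lay above every 3xTg-AD control in 1 of 99 tests (Tmsb10 in VLMC), beside 2.23% of all genes and classes. The medians over classes were -0.05 for Tmsb4x (-0.32 with the Gm42418 share as a covariate), 0.20 for Tmsb10, 0.19 for Pfn1, -0.03 for Pfn2, 0.15 for Cfl1, -0.12 for Actb and 0.10 for Actg1. With 1 mouse left out they ranged from 0.07 (without 3xTg-AD alcohol mouse 33) to 0.31 (34) for Pfn1, from -0.06 (4) to 0.03 (31) for Pfn2, from 0.10 (33) to 0.24 (31) for Cfl1, from -0.19 (33) to -0.05 (31) for Actb and from 0.05 (33) to 0.18 (without 3xTg-AD control 21) for Actg1. Single classes lay farther from 0, from -0.57 (Pfn2 in VLMC) to 0.72 (Tmsb10 in VLMC). The alcohol responses of the genotypes were compared by the interaction term, in which edgeR and DESeq2 each called 0 of 99 tests of the 6 genes other than Tmsb4x, beside 0.00084% of all genes and classes. There 11 of 99 had an unadjusted p under 0.05 (4.23% of all), with medians of -0.37 for Actb, -0.34 for Actg1, -0.27 for Tmsb10, -0.27 for Pfn1, -0.14 for Cfl1 and -0.11 for Pfn2. With 1 mouse left out the count of 11 ranged from 5 of 100 (without 3xTg-AD alcohol mouse 31) to 16 of 99 (without 3xTg-AD alcohol mouse 33). It was 6 without 3xTg-AD control 21, 7 without either WT control 27 or WT alcohol mouse 7, and 15 without WT alcohol mouse 17. The median of Tmsb10 was 0.05 without the 4 mice with the lowest ribosomal protein share. With 1 mouse left out it ranged from -0.42 (without WT control 36) to -0.09 (without WT alcohol mouse 17). The median of Cfl1 was -0.04 without 3xTg-AD alcohol mouse 31 and -0.22 without 33. That of Pfn1 was -0.16 without 3xTg-AD control 14 and -0.41 without WT alcohol mouse 6, and that of Pfn2 -0.04 without WT control 36. A difference between the genotypes in their alcohol response was not shown for any of these 6 genes, with a median SE of 0.246 for Actg1. Tmsb4x, as a description, had a median of -0.56.

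The comparison of 3xTg-AD alcohol mice with WT controls, which uses the same WT controls as above, held a single call among the 6 tested genes. Cfl1 in L2/3 IT neurons had 110, 134, 138 and 142 CPM in WT controls and 157, 184, 189 and 200.2 in 3xTg-AD alcohol mice, without overlap. It differed by 0.47 on the log2 scale (edgeR adjusted p = 0.0352), and was 1 call of 99 tests beside 1.17% of all genes and classes, so that the share of calls among the members was near that of all genes. The adjusted p ranged from 0.00844 (DESeq2) to 0.448 (edgeR, classes from marker UMIs) over the alternatives. With those classes the difference was 0.456, and L2/3 IT held 1165 nuclei instead of 13551. With edgeR the adjusted p was above 0.05 without WT control 26 or 27 and without 3xTg-AD alcohol mouse 4, 33 or 34. Actg1 had a median of 0.44, above 0 in 18 of 18 classes, with 13 at an unadjusted p under 0.05 and a smallest edgeR adjusted p of 0.0638. That median was 0.27 without the 3 mice with the most Gm42418 and 0.18 with the Gm42418 share as a covariate. DESeq2 called 4 of 99 here, Cfl1 in L2/3 IT and Actg1 in L2/3 IT, L5 IT and L5 ET neurons. For DESeq2 the share called among all genes and classes is not given here, and 1.17% is that of edgeR. In all 24 of 99 tests had an unadjusted p under 0.05, beside 12.4% of all. This count was 14 of 96 without the 3 mice with the most Gm42418, 15 of 95 without WT control 27 alone and 13 of 99 with the Gm42418 share as a covariate. It was 30 of 100 without 3xTg-AD alcohol mouse 31 and 29 of 101 without the 4 mice with the lowest ribosomal protein share. Cfl1 had a median of 0.31, Tmsb10 0.21, Actb 0.16, Pfn1 -0.02 and Pfn2 -0.04. With 1 mouse left out Tmsb10 ranged from 0.10 (without WT control 26) to 0.39 (without WT control 36), Pfn1 from -0.12 (without 3xTg-AD alcohol mouse 33) to 0.19 (without WT control 36), Pfn2 from -0.10 (without 3xTg-AD alcohol mouse 4) to 0.03 (without 3xTg-AD alcohol mouse 31), and Actb was 0.09 without 3xTg-AD alcohol mouse 33. Without the 4 mice with the lowest ribosomal protein share Pfn1 had 0.30. The median of Tmsb4x, as a description, was 1.23, with every 3xTg-AD alcohol mouse above every WT control in 18 of 18 classes (3.09% of all genes and classes). Without the 3 mice with the most Gm42418 that median was 0.90, and with the Gm42418 share as a covariate 0.76.

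Some of the genes beside Tmsb4x on the X chromosome were called higher in 3xTg-AD mice too. Within 1 Mb of Tmsb4x 6 other genes were tested, in 59 combinations of gene and class, and edgeR called 22 of them higher without alcohol (37.3%, beside 0.0857% of all genes and classes called higher) and 24 under alcohol (40.7%, beside 0.198%). The count of 22 was 13 without the 3 mice with the most Gm42418, and 14 without WT control 36, 3xTg-AD control 14 or 3xTg-AD control 21. Whether the WT and 3xTg-AD mice carried the same X chromosome haplotype around Tmsb4x is not given in the sources used here and was not tested. In the alcohol contrasts and the interaction 0 of 59 were called by edgeR or DESeq2. Gpm6b, a membrane proteolipid of neurons and glia, was called in 12 of 18 classes without alcohol (median 0.82) and in 16 under alcohol (0.96). Summed over all nuclei, Gpm6b had 468, 474, 522 and 661 CPM in WT controls and 912, 947, 968 and 1005 in 3xTg-AD controls. Under alcohol it had 518, 540.4, 556 and 567 CPM in WT mice and 994, 1063, 1113 and 1152 in 3xTg-AD mice. The genotypes did not overlap for Gpm6b in any pairing of groups, and mouse 12, low for Tmsb4x, was within the range of its group.

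The other genes of the window pointed the same way. Trappc2, which serves vesicle tethering, was called in 8 of 14 classes without alcohol (median 1.19) and in 5 under alcohol (0.91), and had 22.4, 27.9, 34.2 and 35.9 CPM in WT controls against 50.9, 70.8, 74.5 and 78.3 in 3xTg-AD controls. Rab9, a GTPase of endosome recycling, was called in 2 of 13 classes in each contrast (0.94 and 0.90). Ofd1, a centriole protein, was called in 0 of 7 classes (0.72 and 0.73) and Prps2, of nucleotide synthesis, in 0 of 6 (0.51 and 0.58). Tlr7, the endosomal receptor for single-stranded RNA, passed the filter in 1 class and was called there under alcohol (1.57). Widening the window to 2 Mb gave 34 and 41 calls of 103 tests (33% and 39.8%), and 5 Mb gave 37 and 43 of 233 (15.9% and 18.5%).

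In both genotype contrasts the called genes lay at Gemin8 and at higher coordinates. With this border, which was set after seeing where the calls begin and so only restates them, the 17 genes tested between the low-coordinate end of the 5 Mb window and Gemin8 had 0 calls of 118 in both genotype contrasts, and gene medians centred on 0.08 and -0.01. The 15 genes from Gemin8 (chrX:166170454-166190512) to the end of the window, Tmsb4x not counted, had 37 and 43 calls of 115, with 15 and 14 of the 15 above 0 and gene medians centred on 0.97 and 0.90. In 3xTg-AD alcohol mice against WT controls the split was not as sharp, with 3 higher and 1 lower call of 118 below Gemin8 (Glra2, a glycine receptor subunit, had a median of 1.24) and 47 higher calls of 115 from Gemin8 on. The difference of Tmsb4x (1.27 and 0.72) lay among these. Frmpd4, a synaptic scaffold at chrX:167471309-168577231, had 44.1, 48.5, 65.8 and 67.5 CPM in WT controls and 99.2, 104, 116 and 140.0 in 3xTg-AD controls, without overlap. Mid1, a microtubule-bound ubiquitin ligase, had a median of 1.51 without alcohol.

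**Figure D5:**
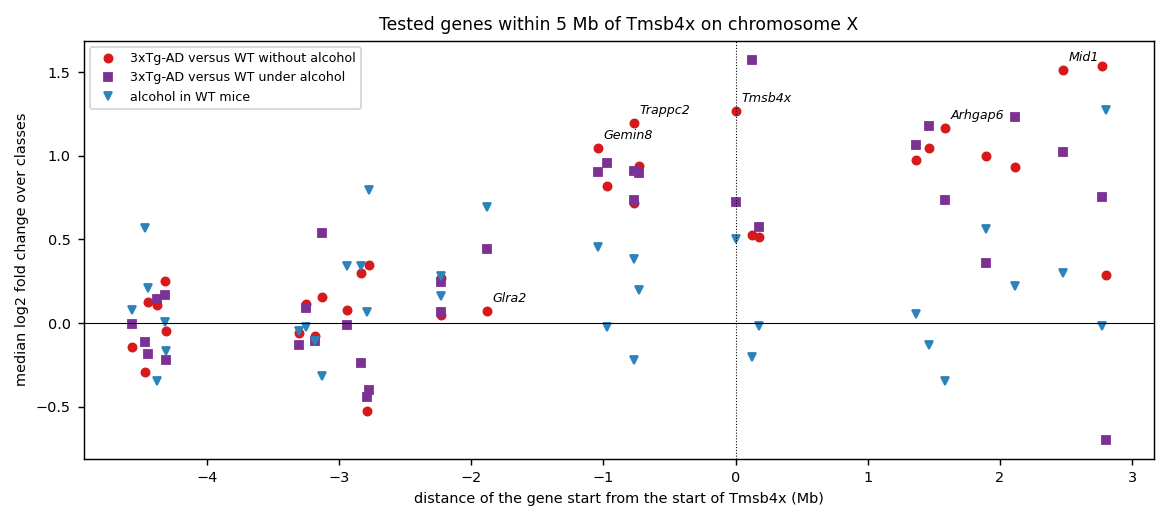
Median log2 fold change over classes of each tested gene within 5 Mb of Tmsb4x against its distance from Tmsb4x in Mb, for both genotype contrasts and for alcohol in WT mice; Tmsb4x is at 0. Without alcohol the genotype values of the 17 genes below Gemin8 are centred on 0.08 (-0.53 to 0.35). Those of the 15 genes from Gemin8 on are centred on 0.97 (0.28 to 1.54). Gemin8 lies about 1 Mb from Tmsb4x on the side of lower coordinates (negative distances), and this border was set after seeing the calls. The alcohol values scatter around 0.

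The wider actin machinery showed few calls. Of 91 further listed actin genes 86 were tested, in 893 combinations with class: actins, other monomer binders, Arp2/3 subunits, nucleation factors, formins, cappers, cofilin kinases and phosphatases, severing helpers, crosslinkers and actin-sensing transcription factors. Between genotypes edgeR called 0 without alcohol and 1 higher in 3xTg-AD mice under alcohol. It called 0 for alcohol in WT mice, 0 for alcohol in 3xTg-AD mice and 0 in the interaction. In 3xTg-AD alcohol mice against WT controls 3 were called lower. With edgeR an unadjusted p under 0.05 was found between genotypes in 49 of 893 without alcohol (beside 6.39% of all genes and classes) and 75 under alcohol (8.59%). It was found in 75 for alcohol in WT mice (9.18%) and 39 for alcohol in 3xTg-AD mice (8.34%). The interaction had 36 (4.23%) and 3xTg-AD alcohol mice against WT controls 75 (12.4%). The shares called were 0.112% between genotypes under alcohol and 0.336% against WT controls, beside 0.39% and 1.17% of all genes and classes. DESeq2 gave the same counts. The gene called higher in 3xTg-AD than in WT mice under alcohol was Flna (filamin A, which crosslinks filaments). The call was in L6 CT neurons (0.72, SE 0.175, edgeR adjusted p = 0.0382). Among the lower ones was Actn2 (α-actinin 2, a spine crosslinker) in L2/3 IT neurons (-0.96, SE 0.220, edgeR adjusted p = 0.0167). The median over the 10 Arp2/3 genes was 0.07 between genotypes without alcohol and 0.17 for alcohol in WT mice. Over the 13 formins it was -0.01 and -0.15. No listed gene outside the 7 was called in 3 or more classes in any contrast.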

How the data were processed

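Nuclei of 16 mice were profiled with the 10x Genomics Chromium 3′ kit v3.1. The authors aligned reads to mm10 with Cell Ranger 6.1.1 (STAR) and deposited raw UMI counts per gene and nucleus as whole numbers with no normalization. Whether intronic reads were counted is not given in the sources used here.

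Nuclei were clustered with leidenalg 0.10.2 on a neighbor graph made with scikit-learn 1.9.0 (2000 variable genes without the members, 30 components, 20 neighbors, resolution 1.5). Clusters were named from markers. Doublets were not called; leaving out the 5% of nuclei with the most UMIs was an alternative. Counts were summed per mouse and class (at least 10 nuclei, 3 mice a group) and tested with edgeR 4.0.16 (TMM, filterByExpr, robust glmQLFit and glmQLFTest, 1 mean per group over all 16 mice), adjusted by Benjamini-Hochberg over all genes of a class and called at 0.05. In this fit 18 classes and 6 contrasts were tested. DESeq2 1.42.0 was an alternative, others being library totals without TMM, no filter on low counts, stricter nuclei, marker-UMI classes, the Gm42418 share as a covariate or its 3 highest mice left out, and each mouse left out. CPM used all UMIs of a class scaled by TMM factors. Genes were matched by name to GENCODE M21 (19628 once) with BLAST+ 2.17.0 for shared ends.

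The members, marker lists and actin lists were chosen with earlier results of these data known. Named genes were all 7 members, the 3 genes most like each over classes and the 5 most like Tmsb4x over mice, the genes within 1 Mb of Tmsb4x, and listed actin genes called in at least 3 classes; Frmpd4, Mid1, Gemin8, Glra2, Flna and Actn2 were named after their values were seen. The mice are separate animals. Some items are not reported here.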

Additional observations from a re-analysis of the deposited data

Results flagged for a closer look

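Within groups of 4 mice, 4 of the 105 sets of values examined held a mouse farther from the others than Dixon's 95% limit allows, and chance gives about 1 in 20. For Tmsb4x over all nuclei, 3xTg-AD control mouse 12 had 1822 CPM while the other 3 had 3248 to 3494.5. For Tmsb4x in Pvalb interneurons, WT alcohol mouse 17 had 1192 CPM while the other 3 had 1487 to 1546. The share of UMIs from ribosomal protein genes was 1.95% in WT control mouse 26, beside 2.21% to 2.23% in its group. The share from Gm42418 was 1.79% in 3xTg-AD control mouse 12, beside 0.348% to 0.398% in its group.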

How the results depend on the processing

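Leaving out each mouse in turn, the calls among the 6 genes other than Tmsb4x ranged from 0 to 0 combinations of gene and class in both genotype contrasts, alcohol in 3xTg-AD mice and the interaction, from 0 to 2 for alcohol in WT mice (2 without WT control 36) and from 0 to 5 for 3xTg-AD alcohol mice against WT controls (0 without WT control 27, 5 without WT control 28). The median Tmsb4x difference ranged from 1.14 to 1.46 between genotypes without alcohol, 0.63 to 0.84 under alcohol, 0.39 to 0.67 for alcohol in WT mice, -0.18 to 0.06 for alcohol in 3xTg-AD mice, -0.72 to -0.45 for the interaction and 1.12 to 1.41 for 3xTg-AD alcohol mice against WT controls. Calls within 1 Mb of Tmsb4x ranged from 14 to 22, 18 to 26 and 23 to 29 in the contrasts with a genotype difference. For the fits with a mouse left out, the share called among all genes and classes is not given here.

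Without the 3 mice with the most Gm42418, calls within 1 Mb without alcohol numbered 13, Tmsb4x differed by 0.18 for alcohol in WT mice and by 0.90 for 3xTg-AD alcohol mice against WT controls, and that last comparison had 0 calls among the other members. With the Gm42418 share as a covariate, Tmsb4x differed by 0.11 for alcohol in WT mice, by -0.32 for alcohol in 3xTg-AD mice and by 0.76 against WT controls, again with 0 calls there. Classes from marker UMIs gave 10 calls within 1 Mb without alcohol, 17 against WT controls, and 0 calls of the 6 genes against WT controls, as did library totals. Marker-UMI classes left more nuclei unnamed, 75455 beside 43807 with clusters. Without a filter on low counts 3 combinations of the 6 genes and class passed the threshold against WT controls (Cfl1 in L2/3 IT, Actg1 in L5 ET and L6 CT). With DESeq2 3 passed for alcohol in WT mice (all Actg1, and 1 over all nuclei) and 4 against WT controls. Of the alternatives added after seeing the data, the ribosomal protein share as a covariate gave 0.20 for Tmsb4x for alcohol in WT mice. Leaving out the 4 mice with the lowest such share gave 0.97 for Tmsb4x under alcohol. That set held the 3xTg-AD alcohol mice lowest in Tmsb4x over all nuclei (31 and 34), so nothing is read from the 0.97. Without these 4 mice there was 1 call for alcohol in WT mice (Actg1 in VLMC) and 1 over all nuclei (Cfl1) against WT controls. The cause of these changes was not tested. Shares called among all genes and classes are not given here for these alternatives, so nothing is read from their call counts.

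No paired analysis was possible because the labels number the mice through the whole series and the groups share no number. Depth limits Pfn1 most, which passed the filter in 11 of 18 classes.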
